A study of Mus musculus with 6 samples.

Results

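Chemokine receptors are the subject here: the 9 genes Ccr2, Ccr4, Ccr7, Ccr8, Ccr9, Cxcr3, Cxcr4, Cxcr6 and Cx3cr1, taken by symbol from the 17985 genes of an RNA-seq table of mouse thymic iNKT1 cells. iNKT cells are T cells with an invariant antigen receptor that recognise lipids presented by CD1d, and iNKT1 cells are their T-bet-expressing, interferon-producing subset. The 3 control libraries (Ctrl) came from mice with the genotype Tbx21CreTg and Rosa26-LSL-YFP+/+, and the 3 conditional knockout libraries (cKO) from mice that carried Tgfbr2F/F in addition. All mice were on a C57BL/6 background and untreated, and no ages were given in the labels. Both groups therefore share the Cre transgene and the reporter, and the Cre is driven by Tbx21, so that the Tgfbr2 allele is targeted in cells that have expressed T-bet. The labels name 3 independent replicates per group but not whether each is 1 mouse or a pool, and p-values measure the spread between these libraries.

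Chemokine receptors are G-protein-coupled receptors of the cell surface that bind small secreted chemokines, signal mainly through inhibitory G proteins and steer cells up a gradient of their ligand. Which receptors a T cell carries helps to set whether it stays in the thymus, settles in a tissue or recirculates. TGF-beta is a secreted cytokine that signals through Tgfbr1 and Tgfbr2 to SMAD transcription factors and is known to promote tissue residency of lymphocytes.

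Values are CPM, the reads of a gene scaled to an equal library total, which corrects for depth but not for gene length. The libraries held 28832779 to 68092478 reads, so that 1 read was worth 0.0147 to 0.0347 CPM. The targeted gene Tgfbr2 was read at 461, 461 and 425 CPM in the Ctrl libraries 1 to 3, and the cKO libraries 1 to 3 had 289.8, 258 and 274 CPM, counted over the whole gene. It fell to 61.0% of the Ctrl mean (limma adjusted p 0.0207). The replicate 3 libraries stood apart from the others in both groups, with 4406 (Ctrl) and 4590 (cKO) genes listed at 0 against at most 5 elsewhere. Results without the replicate 3 libraries are given only where stated. Markers of iNKT1 cells were present in every library, with Tbx21 from 680 to 1027 CPM and Il2rb from 2357 to 4383 CPM. Among the 7 markers, Klrb1c was uneven, at 566, 180 and 703 CPM in Ctrl against 640, 870 and 1021 CPM in cKO. None of the 7 passed between groups without the replicate block explained below, and Il2rb alone passed with it (limma adjusted p 0.0166). Of the 6 double-positive thymocyte markers 4 had values and summed to 5.53 to 17.8 CPM in Ctrl against 8.47 to 22.3 CPM in cKO. Of the 6 myeloid markers 2 had values, summing to 0.510 to 3.54 CPM in Ctrl against 0.764 to 2.67 CPM in cKO, and Csf1r, a defining marker, was at 0 in both replicate 3 libraries.

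All 9 receptors averaged 1 CPM or more, and they were tested in a fit across 15691 genes (limma on log2(CPM + 1), adjusted p of 0.05). The question was which receptors differ between iNKT1 cells with and without an intact Tgfbr2 gene. Ccr8 fell and Ccr2 rose, so that 2 of 9 receptors passed, where 0.663% of all tested genes did (0.204% higher and 0.459% lower). Same-numbered libraries deviated together, although replicates 1 and 2 were not clearly told from each other. With the replicate number as a block, 5 of 9 passed, where 2.87% of all tested genes did (1.24% higher and 1.64% lower). Ccr8, Cx3cr1 and Cxcr6 were lower and Ccr2 and Ccr4 were higher. In replicates 1 and 2 alone, 4 of 9 passed (Ccr8, Cx3cr1, Cxcr6 and Ccr2), where 1.72% of 17161 genes did (0.734% higher and 0.991% lower). The groups did not overlap for 5 of 9 receptors (Ccr8, Cx3cr1, Cxcr6, Ccr2 and Cxcr4), where 11% of all tested genes did not (3.89% higher and 7.1% lower). The median log2 fold change over the 9 was 0.0823 beside -0.0382 over all tested genes, with values from -4.58 to 1.25. In bulk RNA, fewer cells with a transcript and less transcript per cell cannot be told apart.

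**Figure D1:**
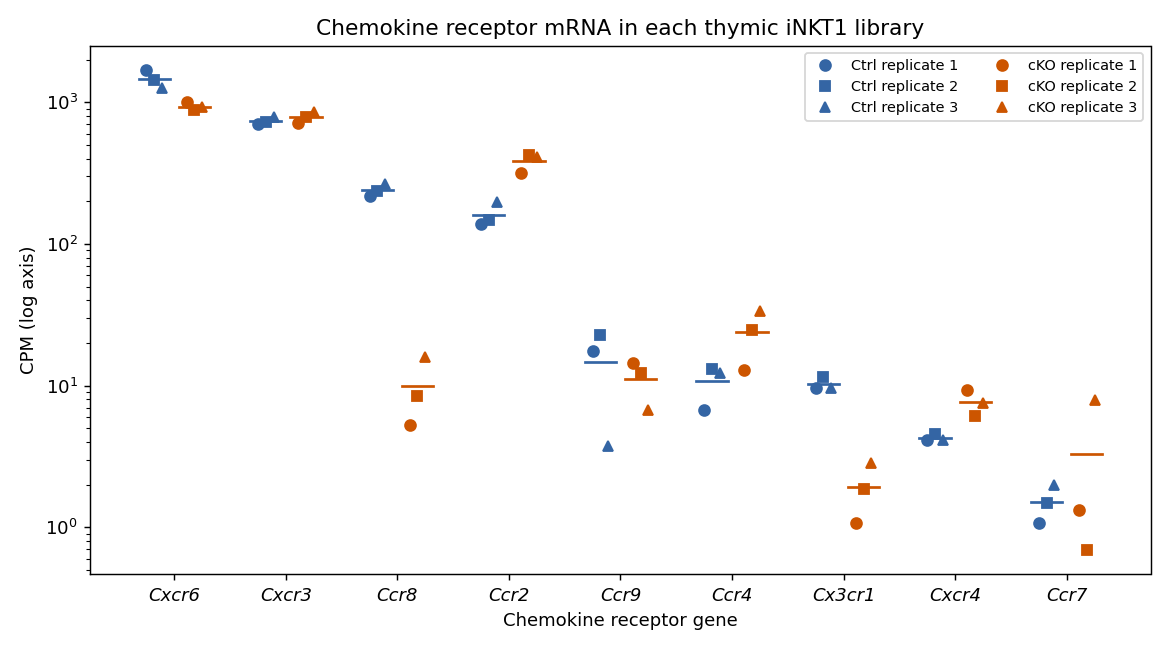
CPM on a log axis for the 9 chemokine receptor genes, ordered by their Ctrl mean; each point is 1 library, its shape the replicate number, and horizontal bars are means of 3 libraries. Ccr8 shows the widest gap, with Ctrl libraries from 219 to 265 CPM and cKO libraries from 5.31 to 15.9 CPM, whereas the Ctrl and cKO points of Cxcr3 lie together.

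**Figure D2:**
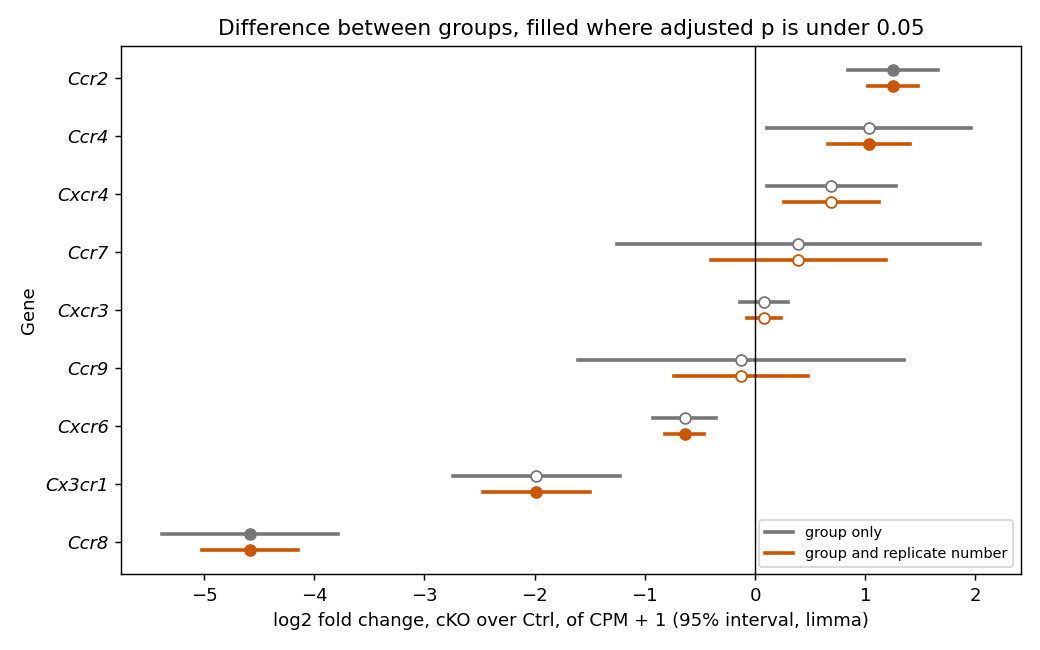
Log2 fold change of CPM + 1, cKO over Ctrl, with 95% intervals from limma, fitted with group only (grey) and with the replicate number as a block (orange); filled circles mark an adjusted p under 0.05. The estimates are equal in both fits, from -4.58 for Ccr8 to 1.25 for Ccr2. In each fit the intervals of Ccr8, Cx3cr1, Cxcr6, Ccr2, Ccr4 and Cxcr4 lie away from 0. These intervals are not adjusted for the number of genes, and only Ccr8 and Ccr2 are filled in both fits.

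Ccr8, a receptor for the chemokine CCL1 that is carried by skin-homing, resident and regulatory T cells, fell most among the 9 receptors. It lies on chromosome 9 from 120092133 to 120094906 on the plus strand (ENSMUSG00000042262, mm10). Values of 219, 236 and 265 CPM in the Ctrl libraries 1 to 3 stood against 5.31, 8.45 and 15.9 CPM in the cKO libraries 1 to 3. Every cKO library was far below every Ctrl library, and the highest cKO library was replicate 3. The mean went from 239.9 ± 23.3 CPM to 9.90 ± 5.47 CPM (SD, n = 3 each), a remainder of 4.13% and a 24.2-fold difference. The cKO values rest on 153, 355 and 1086 reads. On the log2 scale the fold change was -4.58 (SE 0.334), and the limma adjusted p was 0.00403 without the replicate block and 1.68e-05 with it. In replicates 1 and 2 alone the adjusted p was 8.42e-06. Within same-numbered pairs the difference was -5.12, -4.65 and -3.97 on the log2(CPM + 1) scale. Ccr8 passed in all 14 alternative fits and in all 6 fits that left out 1 library, with adjusted p values up to 0.0457 and 0.0416.

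Cx3cr1, the receptor for the membrane-bound chemokine CX3CL1 that marks effector lymphocytes and monocytes, had low values that were lower still in cKO. Its gene is on chromosome 9 from 119901616 to 120068283 on the minus strand (ENSMUSG00000052336), and 23.9 kilobases separate its deposited gene model from that of Ccr8. Ctrl libraries held 9.69, 11.5 and 9.67 CPM and cKO libraries 1.08, 1.88 and 2.85 CPM. The groups did not overlap, and as for Ccr8 cKO replicate 3 was the highest of its group. Of the Ctrl mean, 10.3 ± 1.03 CPM, 18.8% was left in cKO at 1.94 ± 0.888 CPM (SD, n = 3 each). This was a log2 fold change of -1.98 (SE 0.318), and the fall passed with the replicate block (limma adjusted p 0.00147) and in replicates 1 and 2 alone (0.00528) but not without the block (0.0646). Gorasp1, which encodes a Golgi stacking protein and lies inside the Cx3cr1 gene model on the same strand, went from 9.81, 8.29 and 6.31 CPM in Ctrl to 2.95, 2.19 and 3.32 CPM in cKO, with a limma adjusted p of 0.229 without the block and 0.0143 with it. No exon base was shared between these genes in GENCODE release M21, and the part of Gorasp1 in the Cx3cr1 result was not tested.

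Cxcr6, the receptor for CXCL16 that is known for the homing and survival of NKT cells in liver, was the most abundant of the 9 receptors. The gene spans chromosome 9 from 123806477 to 123811754 on the plus strand (ENSMUSG00000048521). The Ctrl libraries were at 1690.5, 1425 and 1270.5 CPM and the cKO libraries at 1000.3, 876 and 924 CPM. All 3 cKO libraries were below all 3 Ctrl libraries, with a narrower gap than for Ccr8 or Cx3cr1. The mean went from 1462 ± 212 to 933 ± 62.7 CPM (SD, n = 3 each), which left 63.8% of the Ctrl level. The log2 fold change was -0.64 (SE 0.121), and the fall passed with the replicate block (limma adjusted p 0.00281) and in replicates 1 and 2 alone (0.00721) but not without the block (0.115). Cxcr6 lies inside the gene Fyco1 on the opposite strand, with no exon base in common; whether counting used strand was not given, and Fyco1 was at 80.5 ± 13.1 CPM in Ctrl against 78.6 ± 35.2 CPM in cKO.

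The 250 bases before the RefSeq start of the 3 receptors that were lower are shown together with those of Ccr2, which was higher, because SMAD proteins are known to bind the letters CAGAC. RefSeq promoter windows (GRCm38.p6) matched 8 of the 9 receptors. Capitals mark CAGAC or its reverse complement GTCTG, and each sequence runs 5′ to 3′ on the strand of its gene.
Ccr8, chr9:120091883-120092132, plus strand: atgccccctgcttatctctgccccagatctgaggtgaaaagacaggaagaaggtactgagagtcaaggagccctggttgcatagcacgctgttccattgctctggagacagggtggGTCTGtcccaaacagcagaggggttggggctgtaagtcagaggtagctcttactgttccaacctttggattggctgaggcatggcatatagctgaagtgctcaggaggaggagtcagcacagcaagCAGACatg
Cx3cr1, chr9:120068297-120068546, minus strand: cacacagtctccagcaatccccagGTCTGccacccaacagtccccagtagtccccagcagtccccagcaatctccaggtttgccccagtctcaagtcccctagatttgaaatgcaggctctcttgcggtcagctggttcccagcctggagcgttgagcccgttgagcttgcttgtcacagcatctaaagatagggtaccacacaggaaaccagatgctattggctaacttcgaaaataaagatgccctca
Cxcr6, chr9:123806227-123806476, plus strand: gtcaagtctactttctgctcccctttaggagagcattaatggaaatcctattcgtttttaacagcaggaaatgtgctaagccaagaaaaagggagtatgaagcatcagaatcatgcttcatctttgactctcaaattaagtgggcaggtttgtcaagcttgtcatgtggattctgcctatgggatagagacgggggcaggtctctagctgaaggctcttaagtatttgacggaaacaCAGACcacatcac
Ccr2, chr9:124101933-124102182, plus strand: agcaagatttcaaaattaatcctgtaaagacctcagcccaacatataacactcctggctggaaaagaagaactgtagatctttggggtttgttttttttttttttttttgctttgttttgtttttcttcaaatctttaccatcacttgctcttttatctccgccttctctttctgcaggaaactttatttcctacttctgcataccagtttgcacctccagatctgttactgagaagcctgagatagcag
The Ccr8 window held 2 matches, which began 134 and 8 bases before the start. Cx3cr1 held 1 match at 226 bases before its start and Cxcr6 held 1 at 13 bases. The windows of Ccr2, Ccr4, Ccr9, Cxcr3 and Cxcr4 held none, so that 3 of 8 receptor windows had a match. The windows of Ccr2 and Cxcr3 lie partly inside the deposited gene model and that of Ccr9 wholly inside. For these genes the bases before the deposited model were thus not, or only partly, searched. Over all 32851 promoter windows of this length, 42.2% held at least 1 match and 11.7% at least 2, so a match is a common feature. The T-box letters TCACACC, on either strand, were in none of the 8 windows and in 3.33% of all windows, and the AP-1 letters TGANTCA were in that of Ccr4 and in 6.75% of all windows. No overlap between these motifs was counted, and a match describes letters only.

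Ccr2, the receptor for CCL2 that draws monocytes and effector T cells into inflamed tissue, rose. Its locus is on chromosome 9 from 124101950 to 124113557 on the plus strand (ENSMUSG00000049103). Ctrl values were 138, 149 and 197 CPM and cKO values 316, 427 and 410 CPM. The lowest cKO library was above the highest Ctrl library. The mean went from 161 ± 31.4 to 384 ± 59.7 CPM (SD, n = 3 each), a 2.38-fold higher level. This corresponds to a log2 fold change of 1.25 (SE 0.173), with a limma adjusted p at 0.0352 without the replicate block and 0.000307 with it. In replicates 1 and 2 alone the adjusted p was 0.00196. Within same-numbered pairs the difference was 1.19, 1.52 and 1.05 on the log2(CPM + 1) scale. The call without the block was lost without Ctrl replicate 1 (limma adjusted p 0.158), Ctrl replicate 2 (0.209), cKO replicate 2 (0.176) or cKO replicate 3 (0.0828), and under limma-voom (0.0687), TMM scaling (0.0962), size factors of the DESeq2 type (0.0503) or edgeR's quasi-likelihood test (0.135). Of the 5654 windows of 75 bases in the Ccr2 transcript, 78 or 1.38% also occur in transcripts of another gene. Only exact matches were sought, and the deposited gene model is listed as longer than that transcript. The uncertain part of its reads may thus be larger than this share.

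Ccr4, the receptor for CCL17 and CCL22 on skin-homing, type 2 helper and regulatory T cells, was higher in cKO in every same-numbered pair. The locus runs on chromosome 9 from 114490316 to 114496544 on the minus strand (ENSMUSG00000047898). The Ctrl libraries were at 6.72, 13.1 and 12.4 CPM and the cKO libraries at 12.8, 24.9 and 33.7 CPM. The groups overlapped slightly, because cKO replicate 1 was below Ctrl replicate 2. The mean went from 10.7 ± 3.48 to 23.8 ± 10.5 CPM (SD, n = 3 each). On the log2 scale the fold change was 1.03 (SE 0.389), and the rise passed with the replicate block (limma adjusted p 0.0115) but not without it (0.716) or in replicates 1 and 2 alone (0.594).

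Ccr4 and Ccr8 are also carried by type 2 and regulatory T cells, and the markers of those cells did not move as 1 group. Among the iNKT2 markers, 3 of 4 had values and summed to 232 to 270 CPM in Ctrl against 197 to 237 CPM in cKO. Gata3, a transcription factor of type 2 cells, was at 197 to 209 CPM in Ctrl against 173 to 192 CPM in cKO. Il4, a type 2 cytokine gene, was at 24.6, 37.5 and 44.3 CPM in Ctrl against 14.4, 20.9 and 20.4 CPM in cKO, a fall that passed with the replicate block (limma adjusted p 0.00806) and not without it (0.421). Il17rb, a cytokine receptor gene of iNKT2 cells, was at 9.57, 13.8 and 17.1 CPM in Ctrl against 9.85, 15.01 and 24.4 CPM in cKO, higher in every same-numbered pair, and did not pass with or without the block. Among the 3 regulatory T cell markers, 2 had values and summed to 46.7 to 53.1 CPM in Ctrl against 61.8 to 81.6 CPM in cKO, and the defining marker Foxp3 was not analysed here. Il2ra, the alpha chain of the interleukin 2 receptor that activated T cells also carry, rose from 8.12, 9.36 and 8.44 CPM to 37.9, 36.2 and 39.1 CPM (log2 fold change 2.01, limma adjusted p 0.00215). Ikzf2, a transcription factor gene of regulatory T cells, was at 41.3, 43.7 and 38.2 CPM in Ctrl against 38.9, 45.4 and 22.7 CPM in cKO and did not pass with or without the block, so the higher sum is that of Il2ra. The part of these cells in the values of Ccr4 and Ccr8 was not tested.

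Cxcr3, the receptor for the interferon-induced chemokines CXCL9, CXCL10 and CXCL11 and a known T-bet target, was at nearly the same level in both groups. Its gene is on chromosome X from 101731535 to 101734269 on the minus strand (ENSMUSG00000050232). Ctrl values were 704, 731 and 781 CPM and cKO values 717, 785 and 847 CPM, with overlapping ranges. A log2 fold change of 0.0823 was estimated, and its 95% interval with the replicate block ran from -0.0713 to 0.236 (limma adjusted p 0.718). This interval leaves out changes as large as those estimated for Cxcr6 and Ccr2.

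Cxcr4, the receptor for CXCL12 that keeps immature cells in bone marrow and thymic cortex, was low in both groups. The gene spans chromosome 1 from 128588199 to 128592293 on the minus strand (ENSMUSG00000045382). Ctrl libraries held 4.16, 4.55 and 4.15 CPM and cKO libraries 9.29, 6.07 and 7.58 CPM. The groups did not overlap, but the log2 fold change of 0.69 (SE 0.245) passed neither without the replicate block (limma adjusted p 0.651) nor with it (0.128). DESeq2 on the recovered reads gave an adjusted p of 0.0165.

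Ccr7, the receptor for CCL19 and CCL21 that guides naive T cells to lymph nodes, was low in every library but 1. Its locus is on chromosome 11 from 99144196 to 99155077 on the minus strand (ENSMUSG00000037944). The Ctrl libraries were at 1.07, 1.49 and 2.002 CPM and the cKO libraries at 1.32, 0.690 and 7.95 CPM. Only cKO replicate 3, with 541 reads, stood above the range of the rest. Its log2 fold change was 0.39, with a 95% interval from -1.25 to 2.04, and turned to -0.33 without cKO replicate 3 and to -0.20 in replicates 1 and 2 alone. Igfbp4, the nearest tested gene before Ccr7, which encodes a binding protein of insulin-like growth factors, was at 7.52 CPM in cKO replicate 3 and at 0.195 to 1.06 CPM in the other 5 libraries.

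Ccr9, the receptor for CCL25 that thymocytes and gut-homing T cells carry, did not pass in any fit. The locus runs on chromosome 9 from 123678439 to 123783457 on the plus strand (ENSMUSG00000029530). The Ctrl libraries were at 17.6, 22.6 and 3.74 CPM and the cKO libraries at 14.6, 12.3 and 6.71 CPM. Both replicate 3 libraries were the lowest of their groups, and the groups overlapped. Its log2 fold change was -0.13, with a 95% interval from -1.61 to 1.35, and its sign differed between pairs, at -0.26, -0.83 and 0.70. The direction flipped under limma-voom (0.0914) and when Ctrl replicate 1, Ctrl replicate 2 or cKO replicate 3 was left out (0.14, 0.31 and 0.17). The summed double-positive thymocyte markers were also lowest in replicate 3, at 17.8, 15.7 and 5.53 CPM in Ctrl against 22.3, 15.3 and 8.47 CPM in cKO, and their part in the Ccr9 values was not tested. Of the exon bases of Ccr9 in GENCODE release M21, 21.5% overlap other genes, the largest share among the 9 receptors. None of the 5123 windows of 75 bases in its principal transcript occurs in transcripts of another gene. Reads from its exons outside that transcript are thus less certain.

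Levels were compared between the receptor genes per kilobase of the deposited gene model. In Ctrl the order was Cxcr6 at 772 ± 112, Cxcr3 at 427 ± 22.6, Ccr8 at 208 ± 20.1, Ccr2 at 11.4 ± 2.22 and Ccr4 at 3.85 ± 1.25 CPM per kilobase (SD, n = 3), and none of these neighbours overlapped. Below them stood Cxcr4 at 1.58 ± 0.0833, Cx3cr1 at 1.49 ± 0.150, Ccr9 at 0.957 ± 0.639 and Ccr7 at 0.770 ± 0.236 CPM per kilobase, where each neighbour overlapped the next. In cKO, Cxcr6 at 493 ± 33.1 and Cxcr3 at 452 ± 37.8 CPM per kilobase overlapped, and Ccr2 at 27.2 ± 4.23 took the third place. Ccr8 at 8.56 ± 4.73 CPM per kilobase was then level with Ccr4 at 8.53 ± 3.76, and Cx3cr1 at 0.281 ± 0.129 was the lowest of the 9. The deposited models of Ccr2 (14140 bases) and Ccr9 (15335 bases) are far longer than their principal transcripts in GENCODE release M21 (5728 and 5197 bases). Those of Cxcr4 (2707 bases) and Cx3cr1 (6885 bases) are longer too (transcripts of 1805 and 4493 bases). Each of these models also exceeds all exon bases of its gene in that release (6760 for Ccr2), so their levels depend on the length used. For Ccr2, 14140 bases are even more than lie between its listed start and end, 124101950 and 124113557. That length is thus not a count of distinct bases, and the level of Ccr2 by it is too low to be read as such. The place of Ccr2 among the 9 was the same by either length. Per kilobase of those transcripts Ctrl levels were 28.2 for Ccr2, 2.82 for Ccr9, 2.38 for Cxcr4 and 2.29 for Cx3cr1. This moved Ccr9 above Cxcr4 and Cx3cr1.

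**Figure D3:**
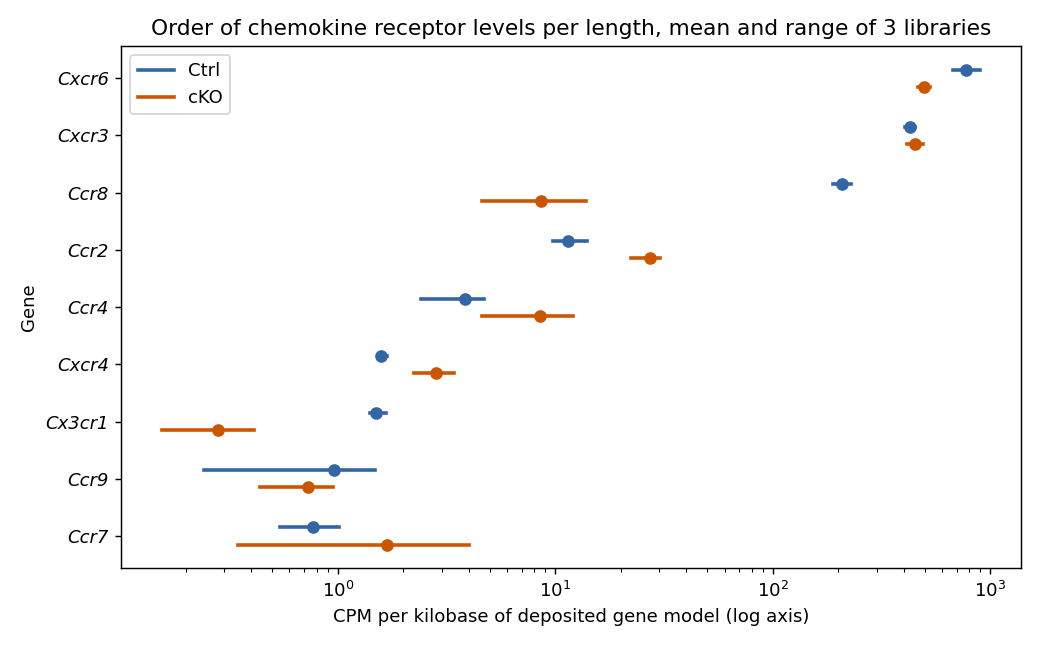
Levels of the 9 receptors in CPM per kilobase of the deposited gene model on a log axis, ordered by the Ctrl mean; circles are means and lines the range of 3 libraries, Ctrl in blue and cKO in orange. The first 3 genes in Ctrl were at 189 CPM per kilobase or more in each library, and in cKO Ccr8 lies beside Ccr4.

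Of the 9 receptors, 6 lie on chromosome 9 within 10 megabases of the targeted gene Tgfbr2, as measured between gene midpoints. Ccr4 lies 1.64 megabases to the lower side, and Cx3cr1 (3.85 megabases), Ccr8 (3.96), Ccr9 (7.60), Cxcr6 (7.68) and Ccr2 (7.98) lie to the higher side. All 5 receptors that passed with the replicate block are among these 6, and none of the 3 receptors elsewhere passed. Within this window, Tgfbr2 itself left out, 4.19% of 215 tested genes passed without the block and 8.37% with it, against 0.607% and 2.79% of the 15475 other tested genes. Without the receptors, 3.35% of 209 genes in the window passed without the block and 6.22% with it. Of the 7 that passed without the block, Rpl29 (log2 fold change -3.30), Abhd14b (-3.21), Abhd14a (-1.90), Mapkapk3 (-1.57) and Glb1 (-0.80) were lower. Ppm1m (0.78) and Als2cl (0.91) were higher. All 7 lie to the lower side of Tgfbr2, most of them near the edge of the window. Their distances were -9.93 megabases for Ppm1m, -9.70 for Rpl29, -9.69 for Abhd14a, -9.68 for Abhd14b and -8.86 for Mapkapk3. Als2cl lies at -5.24 and Glb1 at -1.69 megabases. The part of the position near Tgfbr2 in the receptor values was not tested. Cx3cr1 is the nearest tested gene on the lower side of Ccr8. Csrnp1, which lies inside the Cx3cr1 gene model, was at 53.9 ± 11.2 CPM in Ctrl against 43.8 ± 3.08 CPM in cKO, and Slc25a38, a mitochondrial carrier gene and the nearest tested gene on the higher side of Ccr8, was at 50.8 ± 8.82 and 34.6 ± 4.22 CPM (SD, n = 3 each), and neither passed with the block (limma adjusted p 0.502 and 0.0507) or without it.

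**Figure D4:**
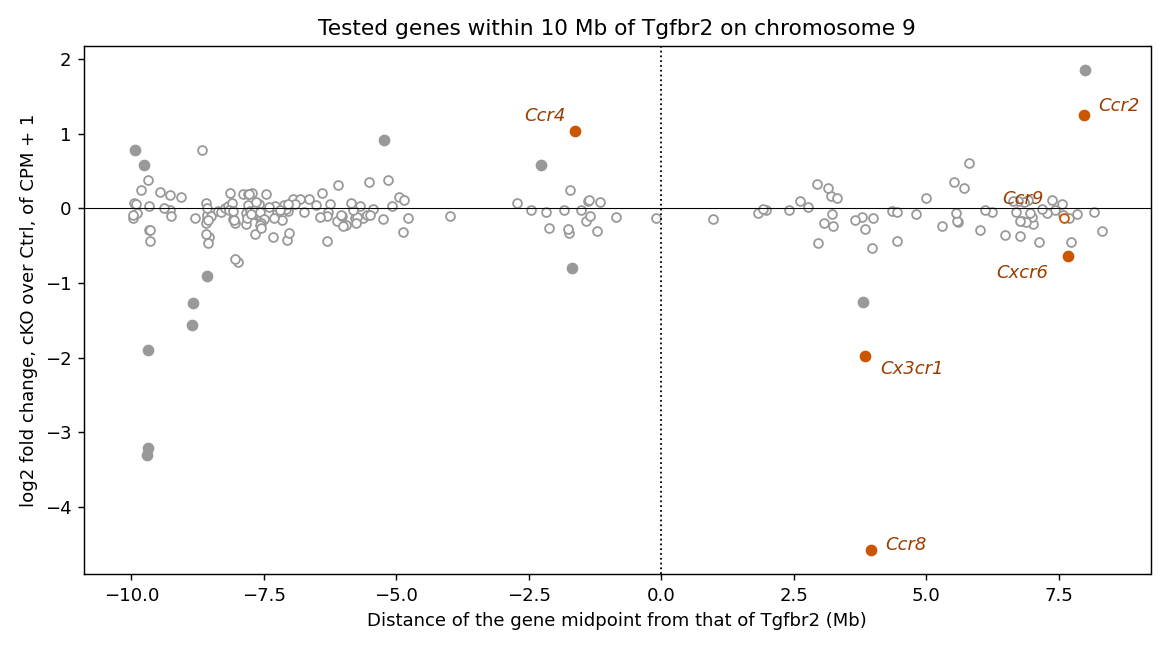
Log2 fold change of CPM + 1 for the tested genes within 10 Mb of Tgfbr2, against distance between gene midpoints in Mb; orange points are the 6 chemokine receptors, grey points the other 209 genes, and filled points have an adjusted p under 0.05 with the replicate block. Filled points are found on both sides of Tgfbr2, and Ccr8 at -4.58 is the lowest point.

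Genes of the same pathway were read from lists. Of the 16 ligands of the 9 receptors 8 had values and 5 were tested, and none passed without the block. Ccl1, a ligand of Ccr8, was at 1.49, 4.39 and 1.55 CPM in Ctrl against 0.243, 0.333 and 0.0294 CPM in cKO, from 50, 135 and 82 reads against 7, 14 and 2. The groups did not overlap, and the log2 fold change of -1.44 passed with the replicate block (limma adjusted p 0.00868) but not without it (0.590); it was the 1 of 5 ligands to pass, where 2.87% of all tested genes did. The Ccl1 gene model in the table spans 82176657 to 82305690 on chromosome 11, far more than a chemokine gene, so these few reads are uncertain.

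Of 27 genes that carry the receptor signal, 24 had values and 23 were tested, with a median log2 fold change of 0.0433 beside -0.0382 over all tested genes. None passed without the replicate block. With the block 1 rose and 1 fell of 23, where 1.24% and 1.64% of all tested genes did. Grk5, a kinase that turns receptors off, was at 2.97, 1.56 and 1.83 CPM in Ctrl against 6.03, 4.57 and 5.61 CPM in cKO, with a log2 fold change of 1.06 (limma adjusted p 0.0143 with the block, 0.567 without). Pik3cg, the lipid kinase subunit that acts below these receptors in leukocytes, was at 182, 196 and 166 CPM in Ctrl against 133, 114 and 120.0 CPM in cKO, with a log2 fold change of -0.56 (0.0157 with the block, 0.101 without). Gnai2, the inhibitory G-protein subunit that most chemokine receptors use in lymphocytes, was at 732, 760 and 921 CPM in Ctrl against 710, 695 and 844 CPM in cKO, with overlapping ranges.

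Of 13 receptors for other chemoattractants, 9 had values and 8 were tested. S1pr5, a receptor for sphingosine-1-phosphate, rose from 9.45, 6.53 and 6.08 CPM to 50.1, 38.6 and 22.8 CPM (limma adjusted p 0.0410) and was the 1 gene of the list to pass without the replicate block. With the block 3 of 8 rose (S1pr5, Ltb4r1 and Gpr18), where 1.24% of all tested genes did. Ltb4r1, the receptor for leukotriene B4, was at 1.22, 1.10 and 0.737 CPM in Ctrl against 8.84, 7.52 and 5.65 CPM in cKO, with a log2 fold change of 2.03 (0.000345 with the block, 0.0909 without). Gpr18, a G-protein-coupled receptor of lymphocytes, was at 103, 99.1 and 129 CPM in Ctrl against 135, 148 and 163 CPM in cKO, with a log2 fold change of 0.44 (0.0355 with the block, 0.460 without).

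**Figure D5:**
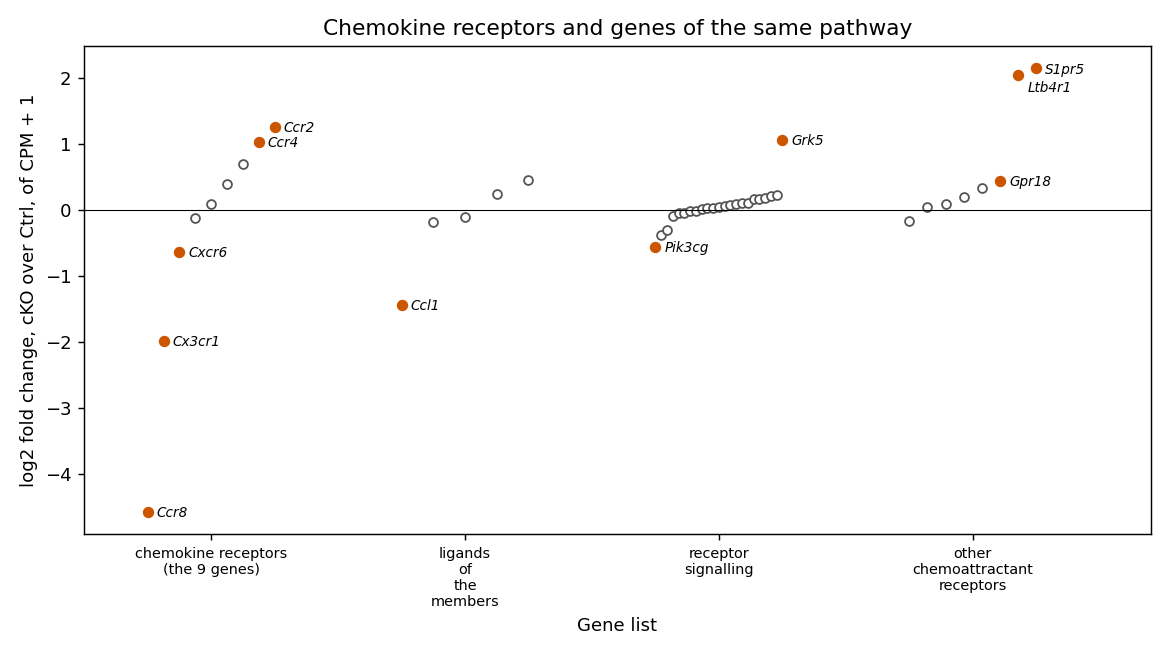
Log2 fold change of CPM + 1, cKO over Ctrl, for the 9 chemokine receptors and the tested genes of 3 lists; points are genes in order of their value, filled and named where the adjusted p was under 0.05 with the replicate block. In the signalling list all but Grk5 and Pik3cg are open circles near 0, whereas Ccr8 at -4.58 is the lowest gene shown.

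The genes whose values over the 6 libraries were most like those of Ccr8, among 10140 genes that averaged 5 CPM or more, were B4galnt4 (a glycosyltransferase gene), Endod1 and Mapkapk3 (a stress-activated kinase gene), with a Pearson r of log2(CPM + 1) of 0.997, 0.996 and 0.996. Those most like Ccr2 were Fyn (a Src family kinase gene), Pecam1 (an adhesion molecule gene) and F2rl2 (a protease-activated receptor gene), at 0.997, 0.997 and 0.994. These are descriptions over 6 libraries that share 2 groups and 3 replicate numbers. Mapkapk3 lies within 10 megabases of Tgfbr2, as Ccr8 does, and Endod1 lies on chromosome 9 outside that window. B4galnt4 is on chromosome 7, and Fyn, Pecam1 and F2rl2 are on chromosomes 10, 11 and 13. The part of position in the likeness was not tested. The log2 fold change was -4.82 for B4galnt4, -0.92 for Endod1 and -1.57 for Mapkapk3, and 0.42 for Fyn, 1.07 for Pecam1 and 1.46 for F2rl2, so genes with a like pattern differed in the size of their change.

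In the authors' deposited table, 2 of 9 receptors were marked, Ccr8 as lower and Ccr2 as higher, where 0.612% of all listed genes were marked. Its log2 fold changes for these were -4.48 and 1.32, with adjusted p values of 8.16e-28 and 0.000581. Cxcr6, Ccr4 and Cx3cr1 passed here in the limma fit with the replicate block but not in the limma fit of all 6 libraries without it. The authors' deposited table gave Cxcr6 an adjusted p of 0.0892, Ccr4 one of 0.921 and Cx3cr1 one of 0.999975 at a log2 fold change of -2.30.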

How the data were processed

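Total RNA of thymic iNKT1 cells was sequenced with 75-base reads, per the labels' protocols. The submitters' processing notes name Trimmomatic 0.33, STAR 2.5.2, HTSeq 0.6.1, edgeR and the build mm10; the strand setting was not given in the sources used here. The authors deposited CPM per gene, and all CPM values were whole multiples of 1 read (tolerance 0.01 reads), so reads were recovered. The authors also deposited log2 fold changes, a likelihood-ratio score and p-values. Columns named WT and KO were taken as Ctrl and cKO.

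The test was limma 3.58.1 on log2(CPM + 1), keeping genes that averaged 1 CPM or more, with group as the only term, mean-variance trend, robust moderation and Benjamini-Hochberg adjustment over all 15691 genes; fold changes on this scale understate changes of low genes. Same-numbered libraries correlated in their deviations from group means at 0.855, 0.687 and 0.924. Replicate numbers were therefore taken to pair them, from the data and not from the labels. Ctrl replicate 2 correlated more with cKO replicate 1 (0.718) than with cKO replicate 2, and Ctrl replicate 1 with cKO replicate 2 at 0.578. These values set replicate 3 apart but do not clearly tell replicates 1 and 2 from each other. Alternatives used edgeR 4.0.16, DESeq2 1.42.0, other scalings, filters and pseudocounts. With 3 libraries against 3, an exact permutation test of 1 gene cannot give a p under 0.1, and none was run.

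The receptors and gene lists were chosen with earlier results of these data known. Named genes were the 9 receptors and Tgfbr2, up to 4 genes per list that passed with or without the block, and the 3 genes most like each receptor that passed. Gnai2, chosen after its values were seen, was named beside these. So were marker genes, neighbours by position and the genes within 10 Mb of Tgfbr2 that passed without the block. A further list, of other chemokine receptors, is not reported here. Marker lists for B cells (summed 1.81 to 11.0 CPM), iNKT17 cells (0.264 to 3.71 CPM) and epithelial and stromal cells (5.65 to 11.0 CPM) were also read. Intervals cover the spread between libraries only, since reads carry no molecular identifiers.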

Additional observations from a re-analysis of the deposited data

How the results depend on the processing

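Ccr8 kept its direction and its side of the threshold in 14 alternatives and 6 fits that left out 1 library, and Ccr2 kept its direction in these. Of the 9 receptors, 2 passed without the replicate block; 5 passed with the replicate block, with the replicate block and TMM scaling, with edgeR and the replicate block, and with DESeq2, where Cxcr4 passed in place of Ccr4. With a pseudocount of 5 CPM and no block, 3 passed (Ccr2, Ccr8 and Cx3cr1). In replicates 1 and 2 alone 4 passed. Under limma-voom, TMM scaling, size factors of the DESeq2 type, edgeR without the block or a threshold of 0.01, 1 passed. Leaving out 1 library gave 1 to 2 receptors.

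Against 104 genes called in all (30.8% of them higher), the replicate block gave 451 (43.0% higher), the replicate block with TMM scaling 514 (51.6%), edgeR with the replicate block 469 (48.8%), DESeq2 554 (50.9%), edgeR 41, limma-voom 61, replicates 1 and 2 alone 296 (42.6%) and the threshold of 0.01 gave 26 (15.4%). Leaving out 1 library gave 14 to 97 genes.

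Against 9 genes called within 10 Mb of Tgfbr2, a count added after seeing the data, the replicate block gave 18, also with TMM scaling, edgeR with the replicate block 19, DESeq2 17, replicates 1 and 2 alone 15, TMM scaling 5, limma-voom 5, edgeR 4 and the threshold of 0.01 gave 2. Leaving out 1 library gave 2 to 6.

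Ccr7 reversed to -0.20 in replicates 1 and 2 alone and over the fits that left out 1 library ran from -0.33 to 0.87. Ccr9 reversed to 0.0914 under limma-voom and ran from -0.84 to 0.31 when 1 library was left out. For these changes the cause was not tested, except that fits on fewer libraries have fewer degrees of freedom. Ccr7 was below the filter with a minimum mean of 5 CPM.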
